A study of Castanea mollissima with 18 samples.

Results

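Somatic embryos 5, 6 and 7 were compared with calli 3, 4 and 5 of Chinese chestnut (Castanea mollissima), 6 of the 18 RNA sequencing libraries of a tissue culture series with 12 somatic embryo and 6 callus libraries. All 18 come from total RNA of cultured tissue. The labels give a tissue name and a number for each, and spell out no stage, cell line, medium, day of culture or treatment. The titles of all 18 also share short codes, ys and pe among them, that the sources used here do not explain. The 3 embryo libraries and the 3 callus libraries were chosen by Spearman correlation of their own expression values: the embryo libraries are a tight set and the callus libraries are the callus set nearest to it. Differences between these 6 libraries are therefore given as a description without a p-value. Tests are given only in the 12 libraries outside these sets, 9 somatic embryo (1 to 4 and 8 to 12) and 3 callus (1, 2 and 6). Calli 1, 2 and 6 were left there because they lay farther from embryos 5, 6 and 7. The 12 libraries are therefore not fully independent of the choice. The unit throughout is FPKM as deposited, that is mapped fragments divided by gene model length and by the total of the library.

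Somatic embryogenesis is the formation of embryo-like structures from cultured cells other than a fertilised egg. In many species the embryos arise on callus, an unorganised mass of dividing cells, and both tissues can then share a culture vessel and a medium. Known features of the embryo state are regulators of embryo identity and, later, storage proteins and oil body proteins, while callus growth is linked to wound and auxin responses. The gene IDs of the table carry no names and no gene list could be matched to them, so whether such markers were present in the libraries could not be examined and the tissue names rest on the labels alone.

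The 3 embryo libraries were almost interchangeable, and so were the 3 callus libraries. Over the 19889 genes with at least 1 FPKM in 3 or more of the 6 libraries, Spearman's correlation was 0.994 to 0.995 within the embryo set, 0.994 to 0.996 within the callus set and 0.860 to 0.872 between them. These are the values behind the choice of libraries and are correlations across genes. The labels do not say which libraries were prepared or sequenced together. Calli 3, 4 and 5 were not nearest to embryos 5, 6 and 7 alone: their correlation was 0.858 to 0.867 with somatic embryo 1 and 0.860 to 0.867 with somatic embryo 12. Embryos 5, 6 and 7 in turn reached 0.884 to 0.930 with somatic embryos 1, 2, 3, 4, 11 and 12, but 0.815 to 0.855 with somatic embryos 8, 9 and 10, below their values with calli 3, 4 and 5, and 0.800 to 0.807 with calli 1, 2 and 6. Somatic embryos 9 and 10 were nearer to calli 3, 4 and 5 (0.838 to 0.846) than to embryos 5, 6 and 7 (0.815 to 0.836). Calli 3, 4 and 5 reached 0.915 to 0.920 with calli 1, 2 and 6. Taking a pair of libraries at a time, 0.116% to 0.211% of the genes lay at least 2-fold apart on the log2(FPKM + 1) scale between embryo libraries and 0.206% to 0.407% between callus libraries. Between an embryo and a callus library this share was 20.6% to 22.3%. Within a set the spread of a typical gene was small, with a median SD on the log2 scale of 0.088 among the embryo libraries and 0.083 among the callus libraries.

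Of the 19889 genes, 4117 (20.7%) lay at least 2-fold apart in mean log2(FPKM + 1) with no overlap between the libraries of the 2 sets. A total of 2418 genes (12.2%) were higher in somatic embryos 5, 6 and 7, by a median log2 difference of 1.73, and 1699 (8.54%) were lower, by a median log2 difference of -1.41. These shares are the description itself, as the choice of libraries used the same values. The remaining genes were close: 79.3% differed by less than 2-fold and 61.0% by less than 1.5-fold. At the limit, the smallest difference counted as higher was 1.00036 and the largest below the limit was 0.999954, so genes on either side of it hardly differ.

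The larger a difference was, the more often it was in favour of the embryos. At 4-fold or more 952 genes were higher and 340 lower, at 8-fold 430 and 82, and at 16-fold 188 and 15. Small differences were mostly the other way: at 1.5-fold or more without overlap 3670 genes were higher and 4047 lower, and without any fold limit 6195 and 9151. The median difference over all genes was -0.12 (log2, embryo minus callus) as deposited, and -0.01 once libraries were scaled by the median of their ratios. Scaled in this way, 7387 genes were higher and 7760 lower without a fold limit, so lower genes were still the more numerous by a smaller margin, while at 1.5-fold the order turned. There 4088 genes were higher and 3217 lower, with 2630 and 1402 at 2-fold and 1025 and 294 at 4-fold. At 2-fold the excess of higher genes was present on each of these scales, with 58.7% of the 2-fold genes higher as deposited, 65.2% after median-of-ratios scaling and 56.3% after quantile normalization.

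**Figure D1:**
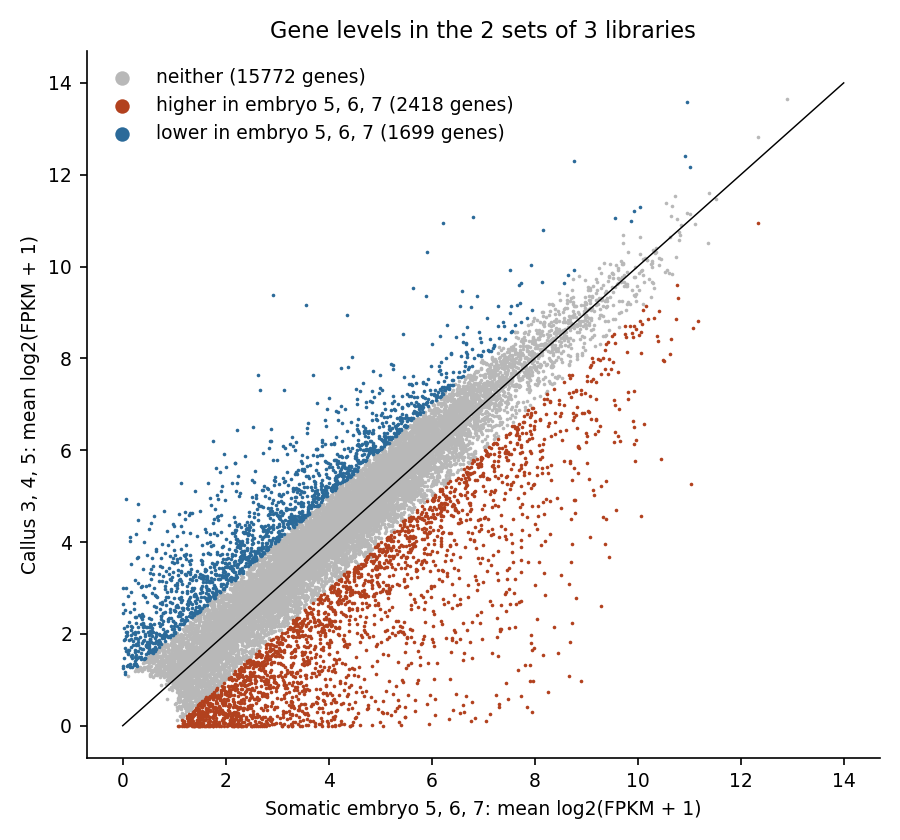
Mean log2(FPKM + 1) of each of 19889 genes in somatic embryo 5, 6 and 7 (x axis) and callus 3, 4 and 5 (y axis), with the line of equal levels. The 2418 genes higher in the embryo libraries spread farther from the line than the 1699 lower genes, and many of them lie along the floor of the callus axis.

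Genes that were expressed in one set and close to absent from the other were mainly those expressed in embryos 5, 6 and 7. In 155 of the 2418 higher genes (6.41%) all 3 embryo libraries reached 1 FPKM while all 3 callus libraries were under 0.1 FPKM, and in 70 of these the gene was listed at 0 in every callus library of the set. The reverse pattern was found in 18 of the 1699 lower genes (1.06%), 4 of them listed at 0 in every embryo library of the set. Such genes were of modest level, with a median of 3.44 FPKM in embryos 5, 6 and 7 for the first list and 2.92 FPKM in calli 3, 4 and 5 for the second. The limit of 1 FPKM that admits a gene to the comparison works through the high set alone for them, as for 713 higher and 241 lower genes in all, so these genes had to differ once admitted. At the other extreme, 972 higher and 868 lower genes had 5 FPKM or more in each of the 6 libraries.

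These near-absent genes were also counted in the 12 libraries outside the 2 sets, as a description of the lists and not as support for them. Of the 155 genes, 49 (somatic embryo 9) to 118 (somatic embryo 11) reached 1 FPKM in an other embryo library, against 6 (callus 2) to 11 (callus 1) in an other callus library. Of the 18 genes, 0 to 3 reached 1 FPKM in an other embryo library, against 14 to 16 in callus 1, 2 and 6. Of all 19889 genes compared, 89.9% to 93.3% reached 1 FPKM in an other embryo library and 90.6% to 91.1% in an other callus library.

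Differences were found at every level of expression. Of 4770 genes with a mean under 5 FPKM over the 6 libraries, 17.0% were higher in embryos 5, 6 and 7 and 8.83% lower, where the filter can admit a gene through a single set. At 5 to 50 FPKM (10928 genes) the shares were 9.49% and 8.49%, and at 50 FPKM or more (4191 genes) 13.6% and 8.35%. Among the most abundant genes, the 100 highest of each set shared 55 genes, and 34 of the 100 in the embryo libraries were among the higher genes while 17 of the 100 in the callus libraries were among the lower. The 10 highest of each set shared 4 genes. The 2418 higher genes held 22.9%, 21.7% and 22.4% of the summed FPKM in somatic embryos 5, 6 and 7, against 5.48%, 5.30% and 5.25% in calli 3, 4 and 5. The 1699 lower genes held 4.15%, 4.19% and 4.19% in the embryo libraries, against 13.9%, 14.5% and 13.7% in the callus libraries.

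The 4 named genes were taken by a fixed rule, the pair with the largest positive and the pair with the largest negative difference; their IDs have no name or function in the sources used here. Cm01G03527.gene had 542, 415 and 477 FPKM in somatic embryos 5, 6 and 7, against 0.96, 1.03 and 0.88 FPKM in calli 3, 4 and 5. All 3 embryo libraries were high and all 3 callus libraries near 1 FPKM, with means of 478 ± 63.3 and 0.957 ± 0.075 (SD, n = 3 each) and a log2 difference of 7.93. In the other 12 libraries it spanned 1.70 to 385 FPKM in embryos (median 76.0), against 1.68 to 4.02 FPKM in calli 1, 2 and 6, and 8 of 9 embryo libraries lay above every callus library. There the difference was 3.75 ± 1.21 (log2, SE) with an adjusted p of 0.025 (limma, Benjamini-Hochberg over 21731 genes). That call was lost when callus 1, 2 or 6 was left out (limma adjusted p = 0.061, 0.078 and 0.093), and the adjusted p was 0.0027 to 0.15 over all alternatives.

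The second gene, Cm05G00385.gene, had 229, 253 and 254 FPKM in somatic embryos 5, 6 and 7, against 0.17, 0.29 and 0.22 FPKM in calli 3, 4 and 5. On the log2(FPKM + 1) scale the sets lay about as far apart as for the first gene, at a difference of 7.65. This likeness depends on the pseudocount, because the callus values are near 0. With a pseudocount of 0.01 the difference was 10.05 for this gene and 8.94 for the first. In the other libraries it spanned 1.05 to 121 FPKM in embryos (median 48.9), against 3.04 to 3.80 FPKM in calli 1, 2 and 6. Somatic embryo 9, at 1.05 FPKM, was the only one of the 9 below the callus libraries. The difference there was 3.03 ± 0.98 (log2, SE; limma adjusted p = 0.026), and the call was again lost without callus 1, 2 or 6 (limma adjusted p = 0.083, 0.073 and 0.081; 0.00029 to 0.20 over all alternatives). Every one of the 9 other embryo libraries was below embryos 5, 6 and 7 in both genes. The gene one ID number before it followed the same pattern, with a mean of 231 ± 18.0 FPKM in embryos 5, 6 and 7 and 0.35 ± 0.31 FPKM in calli 3, 4 and 5 (SD, n = 3 each). The gene one number after it did not, at 95.5 ± 3.83 and 71.6 ± 1.55 FPKM.

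**Figure D2:**
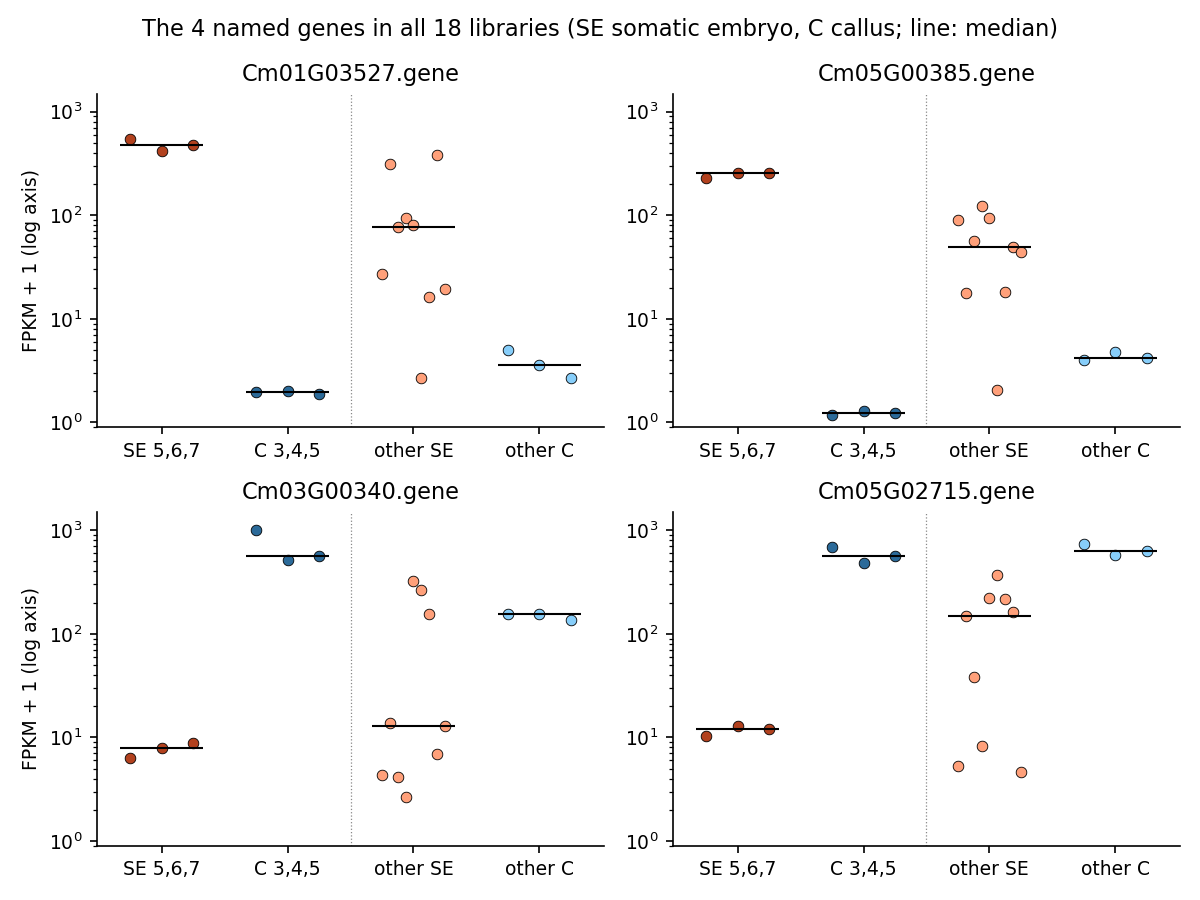
FPKM + 1 (log axis) of the 4 named genes in each of 18 libraries, grouped as somatic embryo 5, 6, 7, callus 3, 4, 5, the 9 other somatic embryo (SE) and the 3 other callus (C) libraries; each point is a library and each line a median. The sets left of the dotted line do not overlap, while the other embryo libraries spread over a wide range in all 4 genes.

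Cm03G00340.gene had the largest negative difference, with 5.28, 6.89 and 7.86 FPKM in somatic embryos 5, 6 and 7, against 1009, 513 and 558 FPKM in calli 3, 4 and 5. Callus 3 stood above the other callus libraries of the set, and the log2 difference was -6.44 (means of 6.68 ± 1.30 and 693 ± 274 FPKM, SD, n = 3 each). Calli 1, 2 and 6 had only 135 to 155 FPKM. Of the other embryo libraries, somatic embryos 8 and 9 lay above these calli with 320 and 262 FPKM, and somatic embryo 10 lay within their range with 154 FPKM. The other 6 embryo libraries had 1.66 to 12.8 FPKM. The tissues overlapped here, and the difference of -2.84 ± 1.47 (log2, SE) did not pass (limma adjusted p = 0.14). On libraries 1 and 2 of each tissue alone, which leave out somatic embryos 8, 9 and 10 among others, it was -4.34 and passed (limma adjusted p = 0.023). With the replicate number as a block the limma adjusted p was 0.00057. That fit has 1 residual degree of freedom, and the numbers were not taken to pair libraries, so little weight rests on it. Without somatic embryos 8, 9 and 10, an alternative chosen after the data were seen, the difference was -4.58 (limma adjusted p = 5.6e-05), and with any single library left out the adjusted p was 0.061 to 0.27. The highest over all alternatives was 0.61. The gene one ID number before it was also lower, at 5.40 ± 1.35 FPKM in embryos 5, 6 and 7 and 165 ± 61.5 FPKM in calli 3, 4 and 5 (SD, n = 3 each).

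Cm05G02715.gene had 9.28, 11.9 and 11.2 FPKM in somatic embryos 5, 6 and 7, against 689, 482 and 564 FPKM in calli 3, 4 and 5, a log2 difference of -5.61. Calli 1, 2 and 6 had 573 to 735 FPKM, and all 9 other embryo libraries lay below it, from 3.61 to 368 FPKM. The spread among these embryos was wide: somatic embryos 1, 4 and 12 had 3.61 to 7.26 FPKM and somatic embryo 3 had 37.5 FPKM, while somatic embryos 2, 8, 9, 10 and 11 had 146 to 368 FPKM. The difference in these libraries, -3.60 ± 1.36 (log2, SE), lay on the limit of the test (limma adjusted p = 0.0502). The adjusted p was 0.031 to 0.049 without somatic embryo 8, 9, 10 or 11, 0.042 after quantile normalization and 0.12 to 0.14 without a callus library, within 0.0099 to 0.26 over all alternatives.

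The genes as a whole were next followed into the libraries outside the 2 sets, which are not fully independent of the choice. Between the 9 other somatic embryo and the 3 other callus libraries, 21731 genes were tested, and limma called 2623 higher (12.1%) and 3573 lower (16.4%), asking for a 2-fold difference and an adjusted p below 0.05. Of the 2418 genes higher in embryos 5, 6 and 7, 2325 could be tested there: 904 (38.9%) were called higher, 92 (3.96%) lower and 1329 neither. Of the 1699 lower genes 1654 could be tested, and 901 (54.5%) were called lower, 55 (3.33%) higher and 698 neither. Among the 15631 tested genes that were in neither list, 8.76% were called higher and 11.8% lower. The median log2 difference in these other libraries was 1.08 for the higher genes, -1.29 for the lower genes and -0.12 for all genes tested. The labels do not say that libraries come from separate cultures, and Spearman correlations were 0.996 to 0.997 within calli 1, 2 and 6 and up to 0.988 among the 9 embryo libraries. The p-values therefore rest only on the spread among these 12 libraries, possibly a technical one, and overstate the evidence where close libraries repeat a sample.

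The size of the difference in the 6 libraries went with the share called in the others. Genes 2- to 4-fold higher in embryos 5, 6 and 7 were called higher in 35.4% of cases (493 of 1391), those 4- to 8-fold higher in 39.5% (200 of 506) and those 8-fold or more in 49.3% (211 of 428), of which 0 were called lower. For lower genes the shares called lower were 50.5% (668 of 1324), 68.0% (170 of 250) and 78.8% (63 of 80). Read the other way round, 2329 of the genes called higher in the other libraries were compared in the 6 libraries. There 904 (38.8%) were at least 2-fold higher, 55 (2.36%) at least 2-fold lower and 1370 neither. Of 2834 genes called lower and compared, 901 (31.8%) were at least 2-fold lower, 92 (3.25%) at least 2-fold higher and 1841 neither.

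**Figure D3:**
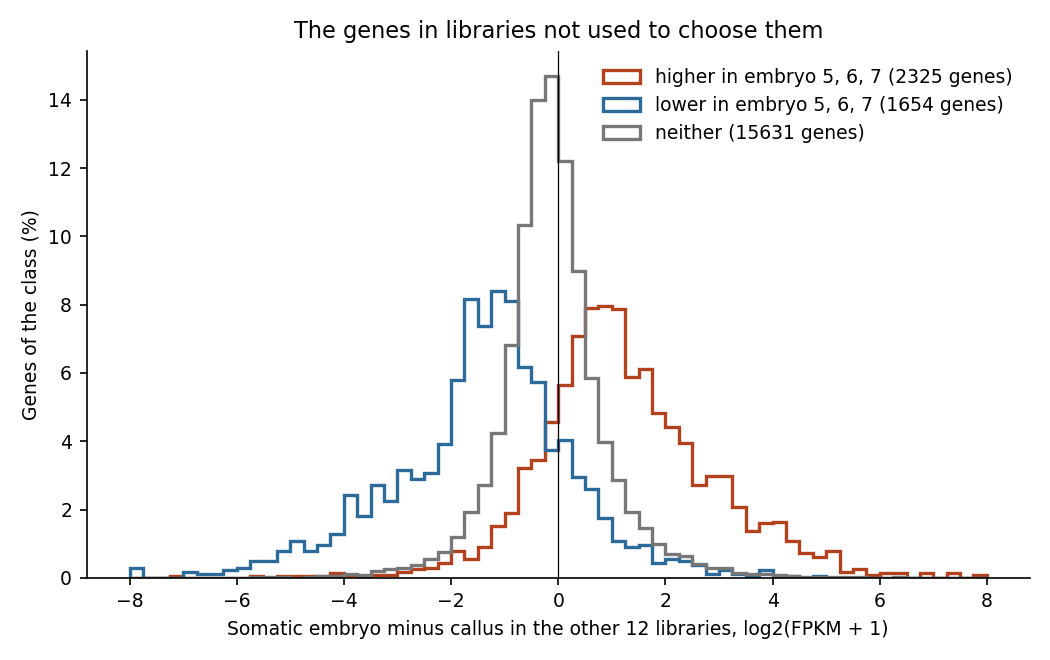
Difference between the 9 other somatic embryo and the 3 other callus libraries (x axis, log2(FPKM + 1), embryo minus callus, values beyond 8 drawn at 8) for genes higher, lower or neither in somatic embryo 5, 6, 7 against callus 3, 4, 5, as a percentage of each class (y axis). The higher genes centre on 1.08, the lower genes on -1.29, and both have tails across 0.

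Counted by library without a model, all 9 other embryo libraries lay above all 3 other callus libraries in 978 of the 2418 higher genes (40.4%), against 16.2% of all 19889 genes compared. All 9 lay below in 985 of the 1699 lower genes (58.0%), against 24.5% of all genes. In 103 higher genes (4.26%, against 24.5% of all genes) all 9 lay below the 3 other callus libraries, and in 66 lower genes (3.88%, against 16.2%) all 9 lay above.

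The other embryo libraries held the pattern of embryos 5, 6 and 7 to different degrees, while calli 1, 2 and 6 had medians near those of calli 3, 4 and 5. The median level of the 2418 higher genes was 4.24 to 4.32 (log2(FPKM + 1)) in embryos 5, 6 and 7, against 1.98 to 2.01 in calli 3, 4 and 5. It was 4.13 in somatic embryo 11 and 2.88 in somatic embryo 9, the highest and lowest of the other embryo libraries, against 2.17 to 2.23 in calli 1, 2 and 6. For the 1699 lower genes the median was 2.77 to 2.82 in embryos 5, 6 and 7, against 4.42 to 4.53 in calli 3, 4 and 5. Of the other libraries, somatic embryos 8, 9 and 10 were highest among embryos at 3.22 to 3.40 and the remaining 6 had 2.52 to 3.02, against 4.49 to 4.54 in calli 1, 2 and 6.

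**Figure D4:**
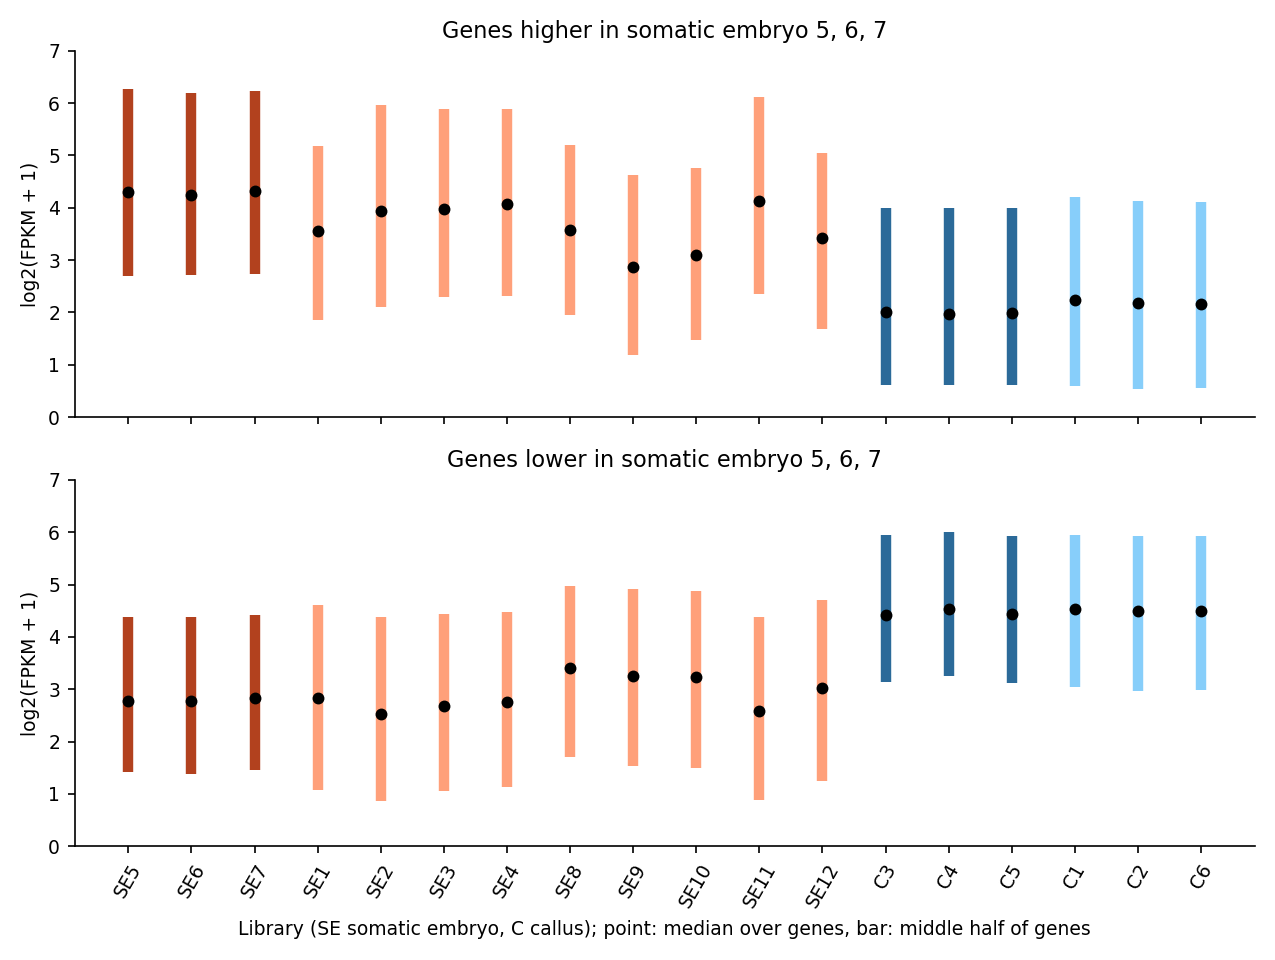
Level (log2(FPKM + 1)) of the 2418 genes higher and the 1699 genes lower in somatic embryo 5, 6, 7, in each of the 18 libraries; points are medians over genes and bars run between the lower and upper quartiles. In the upper panel somatic embryo 9 and 10 are nearest to callus among embryos, in the lower panel somatic embryo 8, 9 and 10.

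Each gene of each other library was also placed on the side of the midpoint between the 2 set means to which it lay nearer. For the higher genes, the share on the side of embryos 5, 6 and 7 was 62.0% to 68.8% in somatic embryos 2, 3, 4 and 11, 39.8% to 47.7% in somatic embryos 1, 8 and 12 and 33.2% and 35.0% in somatic embryos 9 and 10. In calli 1, 2 and 6 it was 13.0% to 13.8%. For the lower genes this share was 76.9% to 85.5% in somatic embryos 1, 2, 3, 4, 11 and 12 and 60.7% to 66.0% in somatic embryos 8, 9 and 10, against 21.2% to 23.7% in calli 1, 2 and 6. By group means, the 9 other embryo libraries lay on the embryo side and the 3 other callus libraries on the callus side in 1028 higher genes (42.5%) and 1078 lower genes (63.4%). In 1068 higher genes (44.2%) and 236 lower genes (13.9%) both groups lay on the callus side, and in 185 (7.65%) and 285 (16.8%) both lay on the embryo side. The genes and the midpoint were both taken from the 6 libraries, so these shares describe the other libraries and are no test.

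**Figure D5:**
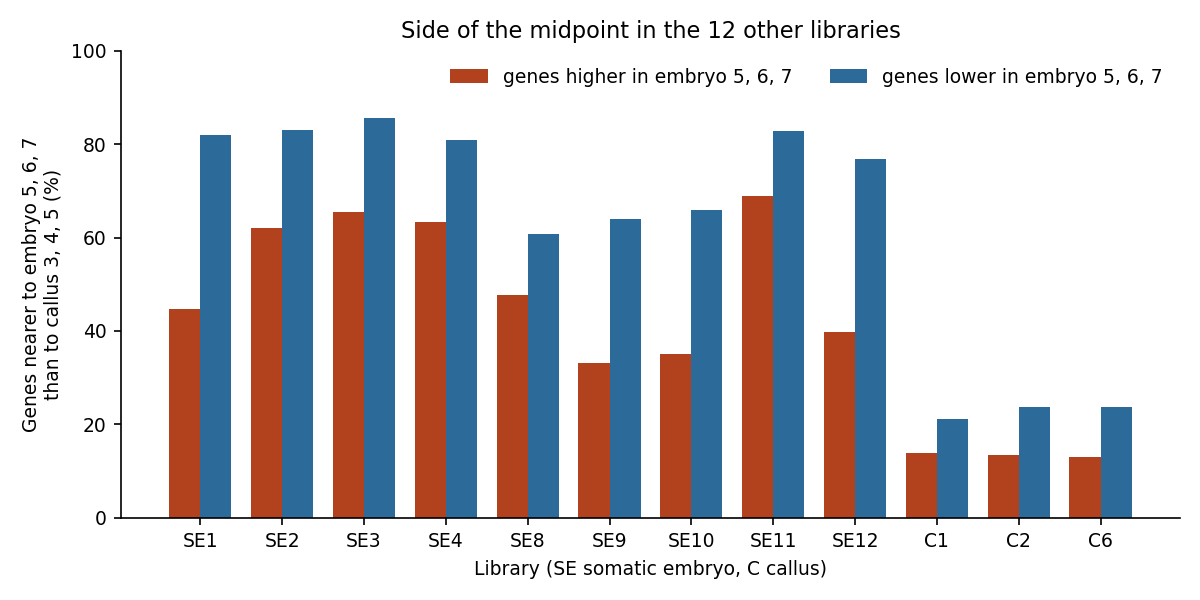
Share of the genes higher (red) and lower (blue) in somatic embryo 5, 6, 7 that lay nearer to these libraries than to callus 3, 4, 5 (y axis, %), in each of the 12 other libraries (SE somatic embryo, C callus). Somatic embryo 9 and 10 have the lowest red bars among embryos at 33.2% and 35.0%, and the 3 callus libraries are at 13.0% to 13.8%.

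Single values of the libraries showed the same order of tissues for the most abundant genes but not for the number of genes detected. The 10 most abundant genes held 3.49% to 3.66% of the summed FPKM in embryos 5, 6 and 7, against 5.91% to 6.28% in calli 3, 4 and 5. In the other libraries they held 5.08% ± 1.13 (SD, n = 9) in embryos and 8.51% ± 0.23 (SD, n = 3) in callus (exact permutation test, two-sided, p = 0.0091, the smallest that 220 splits allow, and 0.027 adjusted over 3 measures). Across the sets the order did not hold, as somatic embryos 8, 9 and 10, at 6.28% to 6.85%, were not below calli 3, 4 and 5. For the 100 most abundant genes the shares were 15.4% to 15.6% against 17.4% to 17.7% in the 6 libraries, and 18.3% ± 1.49 (SD, n = 9) in embryos and 20.2% ± 0.26 (SD, n = 3) in callus in the others (exact permutation p = 0.064, adjusted 0.095). The order of libraries did not hold here either. The other embryos spanned 15.7% to 20.9%, and somatic embryo 9, at 20.9%, was above every callus library (at most 20.5%). Genes at 1 FPKM or more numbered 19504 to 19597 in embryos 5, 6 and 7, above the 18818 to 18830 in calli 3, 4 and 5. In the other libraries the means were 19094 ± 384 (SD, n = 9) in embryos and 19279 ± 82.1 (SD, n = 3) in callus, a difference of -184 within the spread between libraries (exact permutation p = 0.43, also after adjustment). Like those of limma, the permutation p-values take each library as separate and overstate the evidence where close libraries repeat a sample. The summed FPKM of the 6 libraries was 980435 to 993902; FPKM without counts gives no read depth.

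Genes with consecutive ID numbers shared a direction more often than genes overall. Among 13487 pairs of consecutive IDs in which both genes were compared, the next gene was higher in embryos 5, 6 and 7 in 11.8% of all pairs and in 25.9% (422 of 1627) of those whose first gene was higher. It was lower in 8.24% of all pairs and in 16.9% (186 of 1103) of those whose first gene was lower. A higher gene was followed by a lower one in 5.53% of pairs and a lower gene by a higher one in 8.61%. Runs of 3 or more consecutive higher IDs numbered 75 and held 253 genes, the longest with 8; runs of lower IDs numbered 24 with 74 genes, the longest with 4. Reads shared between near-identical neighbouring copies could enter such runs, which was not tested. The share of higher genes was 11.6% to 12.6% in each of the ID series with prefix 01 to 12 and 15.7% (43 of 274) in the series with prefix 00; that of lower genes was 7.55% to 10.2% and 4.74% (13 of 274).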

How the data were processed

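The authors deposited FPKM values in 1 table of 33991 gene IDs and 213 columns, each value with 2 decimals; the 18 columns named for the labelled samples were used and 195 others were not. Reads were examined with FastQC 0.11.9, trimmed with Trimmomatic and aligned with STAR 2.7.10b, per the submitters' processing notes; which program gave FPKM, on which build and annotation, is not given in the sources used here. FPKM depends on gene model length and on each library's total, so a rise of abundant genes lowers the rest.

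Values were transformed to log2(FPKM + 1), which understates the change of low genes. In the 6 libraries, genes with at least 1 FPKM in 3 or more were compared by set means, at least 2-fold and without overlap, with no test. In the 12 others, genes by the same filter were tested with limma 3.58.1 (R 4.3.3; eBayes with trend and robust settings, statmod 1.5.0) and called where they differed 2-fold with an adjusted p below 0.05. Single values were compared with exact permutation tests (SciPy 1.17.1). On data simulated for the 21731 genes of the limma comparison, 60 of 100 genes changed by 1.5 (log2), 97 of 100 changed by 3 and 7 of 21531 unchanged genes were called. The simulated errors were independent between libraries, with 1 SD per gene for both tissues. The error rate where close libraries repeat a sample, or where the tissues differ in spread, was therefore not tested. Only 200 genes were changed in the simulation, against 6196 called in the data. Recovery and false calls with more genes changed were not tested either. Libraries, lists and tests were chosen with earlier results of these data known. The named genes are the pair with the largest and the pair with the smallest difference of set means among the 2-fold genes without overlap. No pair of the 6 libraries had over 1.02% identical values. A search of low values found no clear whole-read steps. At most 14.6% of genes lay within 0.02 (log2) of the best steps, against a median of up to 7.41% for other offsets. Rounding to 2 decimals can exceed this tolerance near the lowest value searched, 0.3 FPKM, so the search cannot exclude steps there. Read counts were not recovered, and no count model was used.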

Additional observations from a re-analysis of the deposited data

Results flagged for a closer look

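Of 13 measures examined over the 9 other somatic embryo libraries, 1 had a library far from the rest by Dixon's test, a rate at which chance alone would mark about 1 in 20 groups. Cm05G00385.gene stood at 1.04 on the log2(FPKM + 1) scale in somatic embryo 9, below the other 8. Between the 6 chosen libraries and the 12 others, the tissues parted in opposite directions without overlap in 103 of the 2418 genes at least 2-fold higher in somatic embryos 5, 6 and 7 than in calli 3, 4 and 5 (4.26%) and in 66 of the 1699 genes at least 2-fold lower (3.88%). Over all 19889 genes compared, the 9 other embryo libraries lay below the 3 other callus libraries in 24.5% and above them in 16.2%. That difference between the sets of libraries was not tested.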

How the results depend on the processing

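The count of genes 2-fold apart in the 6 libraries, 4117, stayed within 1.5 times under 14 of 17 settings (4087 to 4198 with 1 library left out). It was 7717 at 1.5-fold, 1292 at 4-fold and 15346 without a fold limit. The count called in the other 12 libraries, 6196, stayed within 1.5 times under 22 of 25 settings (5172 to 6264 with 1 library left out, lowest without callus 2). With treat of limma, whose null is a 2-fold difference, it was 2442 (900 higher and 1542 lower). It was 3797 with a mean of at least 5 FPKM, where fewer genes were tested, and 3919 on libraries 1 and 2 of each tissue. On those 4 libraries the replicate block gave 4883 with 1 residual degree of freedom. Same-numbered libraries did not deviate together (correlations of -0.08 and 0.04), and the numbers were not taken to pair them. With only 2 numbers held by both tissues, these correlations cannot exclude pairing. Of the tested higher genes, 38.9% were called higher in the other libraries, 29.6% to 42.7% with 1 library left out and 49.4% without somatic embryos 8, 9 and 10; for lower genes called lower, 54.5%, 47.9% to 56.6% and 61.7%. Median-of-ratios scaling moved the higher share of called genes there to 48.2%, against 42.3%. The log2 difference of the named genes kept its sign under every setting run for it. The share of lower genes followed by a lower gene was 8.60% at 4-fold, against 1.66% of all pairs. The genes at least 4-fold apart held 11.5% of the summed FPKM of embryos 5, 6 and 7 (higher genes) and 4.87% of that of calli 3, 4 and 5 (lower genes). The median correlation between the sets, 0.866, was 0.927 without the filter, 0.799 with a mean of at least 5 FPKM and 0.892 over the genes tested in the other libraries; the cause was not tested. Depth is unknown, so it sets no stated limit on low genes.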
